A study of Homo sapiens with 6 samples.

Results

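A set of 10 long noncoding RNAs (lncRNAs), all among the best known transcripts of their kind, was examined: MALAT1, NEAT1, HOTAIRM1, MIR22HG, MIR155HG, PVT1, CYTOR, NORAD, TUG1 and OIP5-AS1. They were taken by symbol, as the rows of the authors' deposited table that carry these 10 names. The set of names was chosen with earlier results of these data known. That rule found 12 rows among 63236. Reads were listed for 10 of these rows, since a second identifier of MALAT1 (ENSG00000278217.1) and a second of MIR22HG (ENSG00000282800.1) were listed at a mean of 0. All 10 lncRNAs carried an adjusted p-value, as did 17395 genes in all, and 2589 of these were other lncRNAs by the GENCODE release 44 biotype.

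The cells were FUJIOKA, an established human acute myeloid leukaemia line, and all 6 libraries came from cells transduced with a doxycycline-inducible lentiviral shRNA vector and selected with puromycin. In 3 libraries (shNEG) the vector carried a scrambled shRNA, and in 3 (shSPINK2) an shRNA against SPINK2, the gene of a Kazal-type inhibitor of serine proteases. The labels name 2 SPINK2 shRNAs and the methods 1, neither says which of them a given shSPINK2 library carries, and the time on doxycycline before RNA was taken is not stated. The labels number the libraries, but nothing says that they came from separate cultures, so each p-value measures the spread between these libraries, which may be technical.

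A lncRNA is transcribed and usually spliced and polyadenylated like an mRNA, but acts as an RNA or through the act of its own transcription. MALAT1 lies in nuclear speckles, the stores of splicing factors, and NEAT1 is the scaffold of paraspeckles. NORAD is a cytoplasmic RNA that binds Pumilio proteins, which repress mRNAs through a short element that NORAD carries many times over. MIR22HG and MIR155HG are the primary transcripts from which miR-22 and miR-155 are cut, and in myeloid cells HOTAIRM1, which starts within the HOXA cluster, is known to rise with granulocytic maturation.

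Sequences are shown for the 2 members that host miRNAs and for NORAD. MIR22HG and MIR155HG are shown by their mature miRNAs, from RefSeq (GRCh38.p14), with the seed (bases 2 to 8, which pair with a target) in capitals. miR-22 lies at chr17:1713914-1713935 (3p) and chr17:1713952-1713973 (5p) on the minus strand, and miR-155 at chr21:25573983-25574006 (5p) and chr21:25574022-25574043 (3p) on the plus strand. The 4 seeds differ, so these 4 miRNAs form no group by seed.
miR-22-3p: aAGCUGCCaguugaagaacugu
miR-22-5p: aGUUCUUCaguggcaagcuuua
miR-155-5p: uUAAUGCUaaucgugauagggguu
miR-155-3p: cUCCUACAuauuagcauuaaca

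NORAD is shown by Pumilio elements, the letters TGTANATA, which were searched on the transcript strand only, overlaps counted. The NORAD transcript (5401 bases, GENCODE release 44) held 15, and 3 of the 17233 canonical transcripts of tested genes held more. An element was present at least once in 25.4% of these transcripts, and in 12.2% of the 2589 other lncRNAs. Among the other members, NEAT1 (22743 bases) held 6, TUG1 (7474 bases) held 2, and no match was found in the remaining 7. Per kilobase NORAD held 2.78 elements, NEAT1 0.26 and TUG1 0.27. Of these, 5 are printed, each in capitals with 8 bases on either side, from GRCh38, minus strand: the element nearest the 5′ end (chr20:36050185-36050208), the tandem pair on chr20:36049495-36049527, one from the middle (chr20:36047974-36047997) and the element nearest the 3′ end (chr20:36046347-36046370).
NORAD element 1: aaggcctgTGTATATAatatgaaa
NORAD element 4: cttatctgTGTATATAgtgtacat
NORAD element 5: gtatatagTGTACATAaaggacag
NORAD element 11: ccctactgTGTATATAgcggacaa
NORAD element 15: agcctattTGTAAATAcctttgtt

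The shRNA targets in the labels were also searched in the members, in the sense that the guide strand of an shRNA can pair through its positions 2 to 8 with other RNAs. The target bases opposite those positions are in capitals, and they were searched on the transcript strand of each canonical transcript.
shRNA1 target: tcagggaaggtggTCATAATa
shRNA2 target: cgccaaactgctcTCAGTATa

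The shRNA1 letters TCATAAT were found in MALAT1, NEAT1 and MIR155HG (1 match each) and in 14.7% of all canonical transcripts of tested genes. The shRNA2 letters TCAGTAT were found in MALAT1 and NEAT1 (1 match each) and in 18.6%. None of MIR22HG, NORAD and OIP5-AS1, the members that passed the test below, held either word. A further word of the shRNA2 target, GCTCTCA (7 bases from its base 10, of which 3 are in capitals above), had 4 matches in NEAT1 and 1 each in NORAD, OIP5-AS1, PVT1 and TUG1, and was found in 19.02% of all these transcripts. A match is a description of letters and not of a site in use.

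For each gene the authors' deposited table lists the mean normalized count of all 6 libraries (reads divided by a size factor per library), the log2 fold change (positive where shSPINK2 was above shNEG) with its standard error (SE), and an adjusted p-value, but nothing for a library by itself. Because each count is a whole number, the mean, the fold change and its SE together fix the reads, and exactly 1 set of 6 whole numbers was found for 16877 of the 17395 genes (97.0%), all 10 members among them. When the fold change was moved slightly, a set was found for 0 of 500 genes. The libraries could be placed in a group but not tied to a replicate number, so they are called a, b and c in order of size factor. The size factors lay between 0.999 and 1.00 in shNEG and between 0.985 and 1.03 in shSPINK2. The deposited means, each an average over the 6 libraries, sum to 38425214 normalized counts. SPINK2 was examined first. It had 53, 63 and 56 reads in shNEG a, b and c and 6, 9 and 7 in shSPINK2 a, b and c, a log2 fold change of -2.98 (SE 0.41, DESeq2 adjusted p = 2.41e-12). Of the 9 markers of myeloid cells, 8 were tested, CEBPA, SPI1, LYZ and CD33 all had means above 7000 normalized counts, and KIT was near 0. The defining markers of erythroid (HBB, HBA1) and epithelial cells (EPCAM, KRT18, KRT19) were listed at 0, those of T cells lay under 5, and among B cell markers CD79A was present (mean 183) and MS4A1 was near 0. CD79A was higher in shSPINK2 (log2 fold change 0.59, DESeq2 adjusted p = 0.00018), and its part in any result below was not tested.

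Of the 10 lncRNAs, 3 were higher in shSPINK2 at an adjusted p under 0.05, MIR22HG, NORAD and OIP5-AS1, and 0 were lower. At an unadjusted p under 0.05 the count of lower members was also 0, as it was in the limma-voom fit of the reads described below. The same test called 47.1% of all 17395 genes, 22.7% as higher and 24.4% as lower, and 16.4% of the other lncRNAs, whose median level was far lower (23.6 normalized counts against 751 for the members). None of the 10 changed by more than 2-fold with an adjusted p under 0.05, a result found for 4.28% of all genes. The median log2 fold change was 0.12 over the members, 0.05 over the other lncRNAs and 0.01 over all tested genes. Among the 44 other lncRNAs with a mean of at least 1000, 21 were higher and 11 lower. Of all 7000 tested genes at that level, 2304 were higher and 2654 lower. In bulk RNA, fewer cells of a type and less RNA per cell cannot be told apart.

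**Figure D1:**
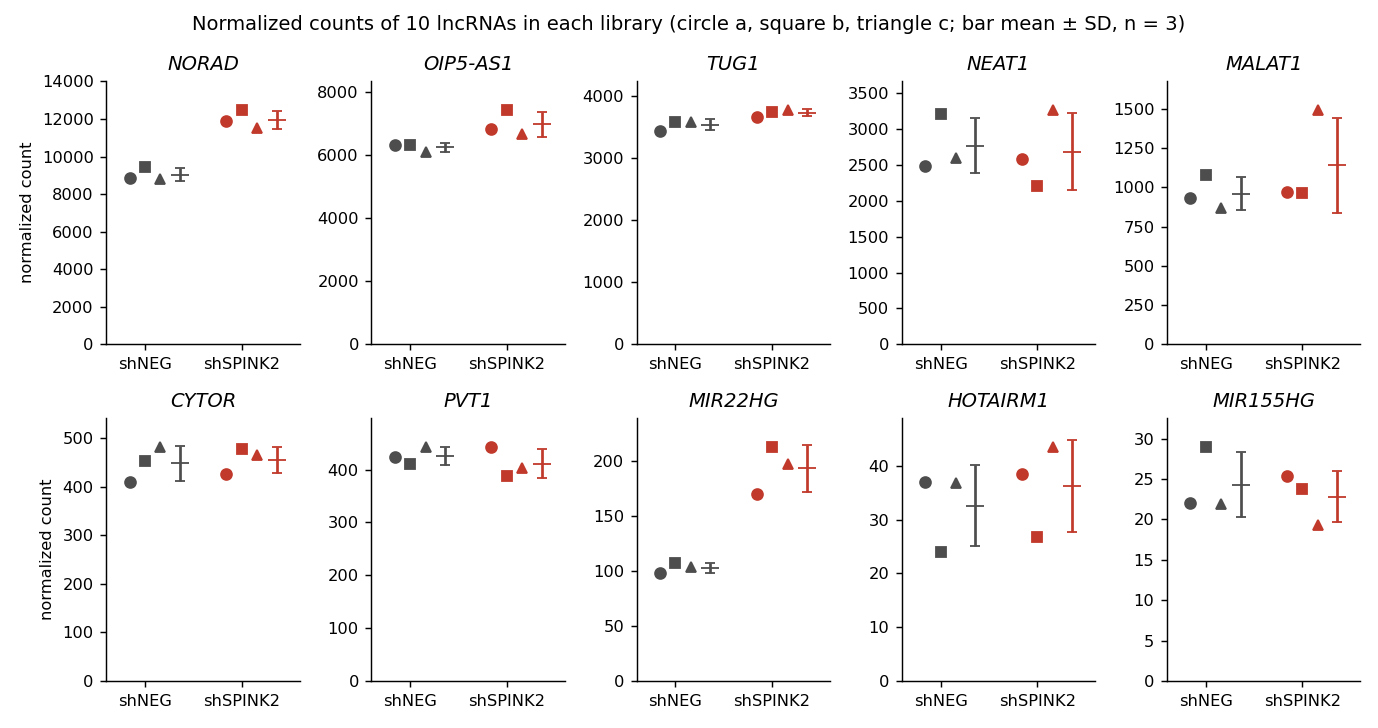
Normalized counts (y axis, from 0) of each lncRNA in the 3 shNEG libraries (grey) and the 3 shSPINK2 libraries (red), with circles, squares and triangles for libraries a, b and c and bars for the mean ± SD (n = 3). The groups stand apart for NORAD, OIP5-AS1, TUG1 and MIR22HG, and in MALAT1 and NEAT1 shSPINK2 c is the highest shSPINK2 library.

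Of the host transcripts of miRNAs, MIR22HG passed the test and MIR155HG did not. MIR22HG (ENSG00000186594.14, chr17:1711447-1717174, minus strand) had normalized counts of 98.1, 107 and 104 in shNEG a, b and c, against 170.5, 213 and 197 in shSPINK2 a, b and c. Every shSPINK2 library was above every shNEG library. The mean rose from 103 ± 4.46 to 194 ± 21.5 (SD, n = 3), or 1.88-fold (95% interval 1.52 to 2.33), with a log2 fold change of 0.91 (SE 0.16, DESeq2 adjusted p = 4.59e-08). This was the largest fold change of the 10 and lay below the 2-fold threshold, while its interval reached past it. Its neighbours went both ways: WDR81, which overlaps it on the opposite strand, was higher by 0.15 on the log2 scale (DESeq2 adjusted p = 0.021), and PRPF8 (-0.44) and SERPINF1 (-0.63) on either side were lower.

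MIR155HG (ENSG00000234883.5, chr21:25561810-25575168, plus strand), the host of miR-155, had 22, 29 and 22 reads in shNEG, against 25, 24 and 20 in shSPINK2. The groups overlapped, and the log2 fold change was -0.09 (SE 0.37, DESeq2 adjusted p = 0.87). With so few reads the 95% interval ran from 0.56-fold to 1.56-fold, so a change within it was not detectable at this depth. MIR155HG had the lowest mean count of the members, and 19.4% of tested genes had a lower mean. Of 17 host transcripts in a list of such genes, 10 were tested, and MIR22HG alone was higher and DLEU2, the host of miR-15a and miR-16, alone lower (log2 fold change -0.50, DESeq2 adjusted p = 9.4e-09). The mRNA libraries do not hold mature miRNAs, so the levels of miR-22 and miR-155 themselves were not measured. Beside MIR155HG, the pseudogene RPL13AP7 was higher (log2 fold change 1.26, DESeq2 adjusted p = 0.020, mean count 16.4) and the lncRNA AP000223.1 did not pass.

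Genes that are well known as targets of these miRNAs are given by count, beside 22.7% of all tested genes called higher and 24.4% lower. Of 9 miR-22 targets tested, 3 were higher, 3 lower and 3 did not pass, with a median log2 fold change of 0.01, equal at this rounding to that of all tested genes. TET2, a DNA demethylase of myeloid progenitors, was the most raised of them (normalized counts 1777, 1715 and 1784 in shNEG, against 2341, 2531 and 2350.0 in shSPINK2, log2 fold change 0.45, DESeq2 adjusted p = 6.4e-16). SP1, a widely used transcription factor, was the most lowered of those that passed (log2 fold change -0.34, DESeq2 adjusted p = 6.3e-13). Of 13 miR-155 targets tested, 7 were higher, 4 lower and 2 did not pass, with a median of 0.11. The extremes were TP53INP1, a p53-induced stress gene (3.36-fold higher), and ETS1, a transcription factor (0.54 of shNEG).

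NORAD (ENSG00000260032.1, chr20:36045618-36051018, minus strand, 1 exon) had the highest mean count of the members and ranked 2 by mean count among the 2599 lncRNAs tested, members included. Its normalized counts were 8853, 9418 and 8797 in shNEG, against 11888, 12465 and 11522 in shSPINK2. The lowest shSPINK2 library was above the highest shNEG library. The mean rose from 9023 ± 343 to 11959 ± 476 (SD, n = 3), or 1.33-fold (95% interval 1.25 to 1.41), with a log2 fold change of 0.41 (SE 0.04, DESeq2 adjusted p = 2.81e-19). It had the smallest adjusted p-value of the 10.

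Among the genes of 8 proteins known to bind NORAD, 6 were lower, 1 higher and 1 did not pass the test, with a median log2 fold change of -0.24. All 8 had means above 1000, where 2654 of 7000 tested genes were lower and 2304 higher. The Pumilio protein gene PUM2 was slightly higher, at 0.11 (SE 0.05, DESeq2 adjusted p = 0.046). The most lowered were the mRNA export factor ALYREF (log2 fold change -0.57), the splicing factor PRPF19 (-0.50) and the RNA-binding protein RBMX (-0.48). The tested genes on either side of NORAD were CNBD2 and EPB41L1, at mean counts of 9.15 and 15.4, and neither passed the test.

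OIP5-AS1 (ENSG00000247556.6, chr15:41283958-41322392, plus strand), a cytoplasmic lncRNA that binds the RNA-stabilizing protein HuR, had the next highest mean count. Its normalized counts were 6322, 6304 and 6086 in shNEG, against 6821, 7415 and 6656 in shSPINK2. Again the groups did not overlap. The mean rose from 6237 ± 132 to 6964 ± 399 (SD, n = 3), or 1.12-fold (95% interval 1.05 to 1.19), with a log2 fold change of 0.16 (SE 0.05, DESeq2 adjusted p = 0.0021). With a Bonferroni adjustment over all genes OIP5-AS1 no longer passed, whereas MIR22HG and NORAD did.

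The annotated span of OIP5-AS1 overlaps OIP5, a centromere protein gene on the opposite strand, over 759 exonic bases, and NUSAP1, a spindle protein gene on the same strand, over 195. Both neighbours fell: OIP5 had normalized counts of 892, 903 and 876 in shNEG, against 524, 467 and 462 in shSPINK2 (log2 fold change -0.88, DESeq2 adjusted p = 4.1e-27), and NUSAP1 had a log2 fold change of -0.94 (DESeq2 adjusted p = 2.9e-74). Whether the counting used strand is not stated, so reads in the shared bases cannot be assigned with certainty. The next genes outside, CHP1 (0.37) and NDUFAF1 (0.51), were higher. ELAVL1, which encodes HuR, was also lower (log2 fold change -0.36, DESeq2 adjusted p = 2.4e-17).

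TUG1 (ENSG00000253352.8, chr22:30969245-30979395, plus strand), which release 44 labels protein-coding, had normalized counts of 3427, 3580 and 3582 in shNEG, against 3659, 3746 and 3766 in shSPINK2. The shSPINK2 libraries were all above the shNEG libraries, but by little: 3529 ± 88.8 against 3724 ± 56.6 (SD, n = 3), with a log2 fold change of 0.08 (SE 0.04, DESeq2 adjusted p = 0.15). Counting TUG1, the groups stood apart with shSPINK2 above in 4 of the 10 members, and in 28.8% of the 16877 genes with recovered reads. An exact two-sided permutation test of 3 libraries against 3 cannot give less than p = 0.1, the value it gave for these 4. The interval of TUG1 ran from 0.99-fold to 1.12-fold. The subunit genes of PRC2, the histone methyltransferase complex that TUG1 was reported to bind, were mostly lower. Of these, 5 of 7 fell, among them PHF19 (log2 fold change -0.83) and the catalytic EZH2 (-0.71), while JARID2 was higher (0.34). Their means were all above 1000, where 2654 of 7000 tested genes were lower and 2304 higher. MORC2, whose start lies 0.5 kb from TUG1 on the opposite strand, had a log2 fold change of 0.01 (DESeq2 adjusted p = 0.90), and the lncRNA AC005005.4 on the other side did not pass.

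**Figure D2:**
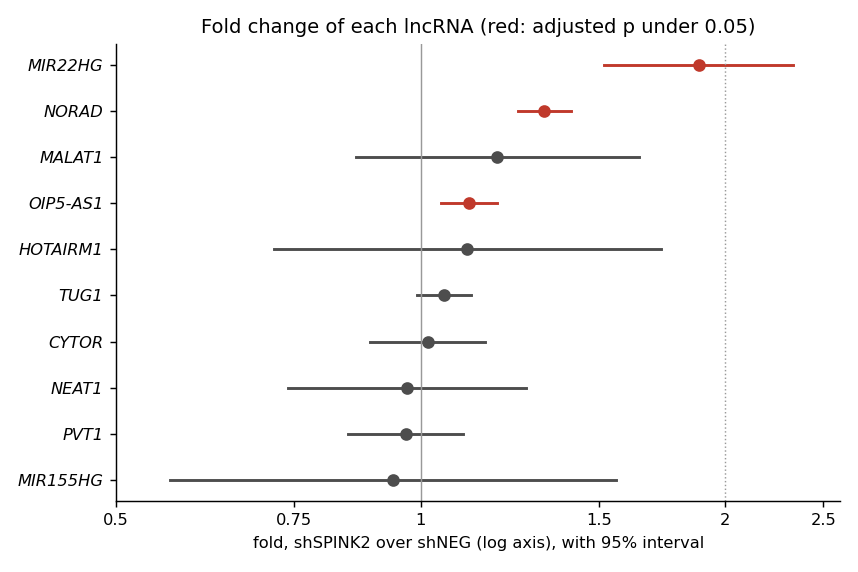
Fold of shSPINK2 over shNEG for each lncRNA (points, log axis) with its 95% interval (lines, from the deposited log2 fold change and SE), red where the adjusted p is under 0.05. MIR22HG (1.88), NORAD (1.33) and OIP5-AS1 (1.12) lie wholly above 1, and the intervals of MALAT1, HOTAIRM1, NEAT1 and MIR155HG are wide.

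The nuclear lncRNAs MALAT1 and NEAT1 lie beside each other on chromosome 11 and were set apart from the other members by the spread of their libraries. MALAT1 (ENSG00000251562.7, chr11:65497640-65508073, plus strand) had normalized counts of 929, 1075 and 871 in shNEG, against 972, 961 and 1491 in shSPINK2. Libraries shSPINK2 a and b lay within the range of shNEG, and shSPINK2 c alone lay above it. The log2 fold change was 0.25 (SE 0.24, DESeq2 adjusted p = 0.42), with a 95% interval from 0.86-fold to 1.64-fold.

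NEAT1 (ENSG00000245532.7, chr11:65422774-65445540, plus strand) had 2491, 3204 and 2602 in shNEG, against 2579, 2206 and 3263 in shSPINK2. The highest and the lowest value were both in shSPINK2, so the groups overlapped. The log2 fold change was -0.04 (SE 0.20, DESeq2 adjusted p = 0.89), with an interval from 0.74-fold to 1.27-fold. In both lncRNAs the highest library of each group was the same, shNEG b and shSPINK2 c.

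The SE of the MALAT1 log2 fold change was 3.48 times the median SE of the 1416 other tested genes whose mean lay within 1.25 times its own, and 0 of these had a larger SE. For NEAT1 the SE was 3.85 times the median of 1515 such genes, again with 0 above it. For the other 8 members the same ratio lay between 0.92 (TUG1) and 1.06 (OIP5-AS1). The coefficient of variation between libraries was 11.01% (shNEG) and 26.5% (shSPINK2) for MALAT1 and 13.9% and 20.0% for NEAT1, against medians between 2.40% and 4.82% in the genes of like mean.

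The calls of this pair depended on which libraries were in the fit. In a limma-voom fit of the recovered reads, chosen after seeing the data, 53.8% of 16877 genes passed at an adjusted p under 0.05, and MALAT1 was higher (log2 fold change 0.23, SE 0.09, limma adjusted p = 0.037). Without shSPINK2 c its log2 fold change was 0.02 (limma adjusted p = 0.85). NEAT1 did not pass with all 6 libraries (-0.05, limma adjusted p = 0.60) but was lower without shSPINK2 c (-0.21, SE 0.07, limma adjusted p = 0.012). MALAT1 also missed the threshold without shNEG a (limma adjusted p = 0.068) or shNEG c (0.18). MIR22HG, NORAD and OIP5-AS1 passed in this fit with all 6 libraries and without each library in turn.

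**Figure D3:**
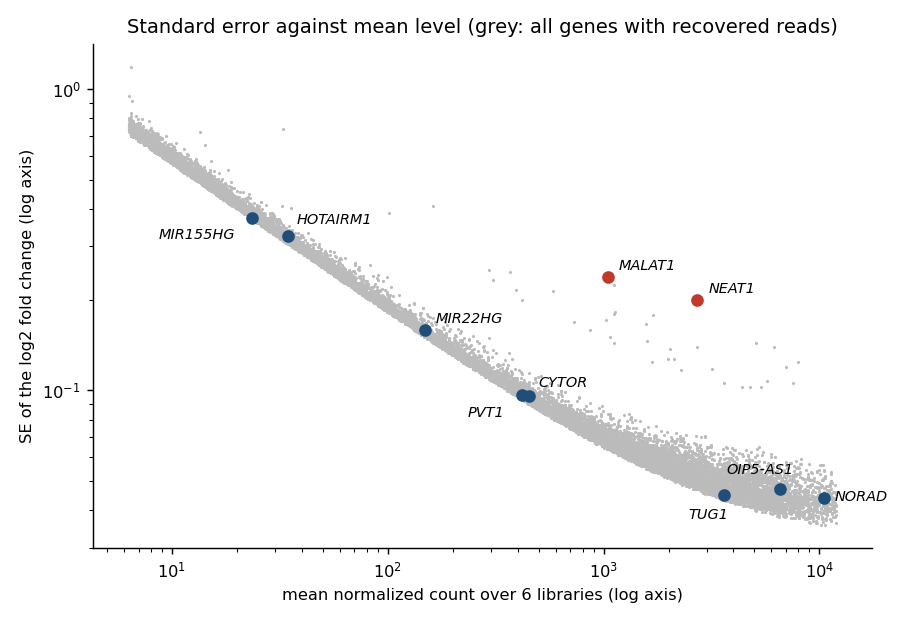
SE of the log2 fold change (y axis, log) against the mean normalized count over 6 libraries (x axis, log) for the 16877 genes with recovered reads (grey), with MALAT1 and NEAT1 in red and the other 8 lncRNAs in blue. MALAT1 (SE 0.24) and NEAT1 (SE 0.20) lie above the band formed by genes of like mean, and the other 8 lie within it.

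The genes of proteins that share these nuclear bodies with MALAT1 and NEAT1 were mostly lower. Of 12 nuclear speckle proteins, 10 were lower and 0 higher, with a median log2 fold change of -0.35, led by RNPS1 (-0.66), PNN (-0.58) and SRSF7 (-0.49), all splicing factors. Of 17 paraspeckle proteins, 14 were lower and 1, the cold-inducible RBM3, was higher (0.33), with a median of -0.21. RBM14 (-0.50) was the lowest, and the core proteins SFPQ (-0.38), NONO (-0.18) and PSPC1 (-0.19) were all lower. These counts stand beside 24.4% of all genes called lower. All genes of both lists had means above 1000, and of the 7000 tested genes at that level 2654 were lower and 2304 higher. The lists were not tested as lists. FRMD8, the next tested gene before NEAT1, did not pass (log2 fold change 0.03, DESeq2 adjusted p = 0.66). The pseudogene AP000769.1, between MALAT1 and NEAT1, did not pass either (0.54, DESeq2 adjusted p = 0.070).

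**Figure D4:**
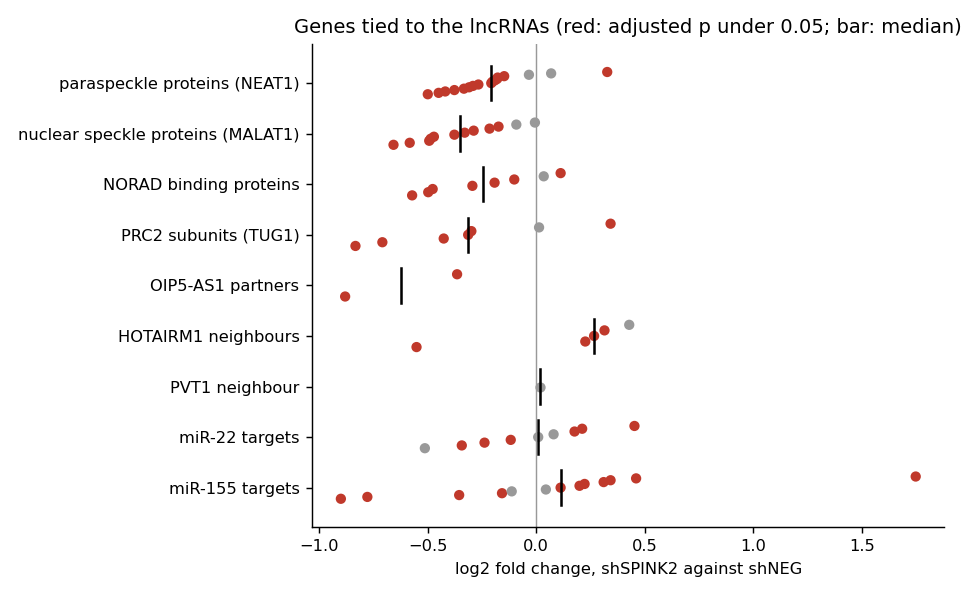
Log2 fold change (x axis) of each tested gene in 9 lists tied to the lncRNAs by protein partner, genomic neighbour or miRNA target (rows), red where the adjusted p is under 0.05, with a bar at each median. The medians of the first 5 lists lie between -0.62 and -0.21, and those of the miRNA target lists at 0.01 and 0.11.

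HOTAIRM1 (ENSG00000233429.9, chr7:27095647-27100265, plus strand) had 37, 24 and 37 reads in shNEG, against 38, 27 and 45 in shSPINK2. The groups overlapped, and the log2 fold change was 0.15 (SE 0.32, DESeq2 adjusted p = 0.75). The 95% interval ran from 0.72-fold to 1.73-fold, so neither a fall nor a rise within it can be excluded at this depth. HOXA2, the tested coding gene 0.1 kb from it on the opposite strand, was lower (normalized counts 118, 135 and 135 in shNEG, against 97.4, 75.3 and 91.9 in shSPINK2, log2 fold change -0.55, DESeq2 adjusted p = 0.0061). SKAP2, the next tested gene beyond the cluster, was higher (0.40).

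PVT1 (ENSG00000249859.9, chr8:127794526-128187101, plus strand), which lies downstream of MYC and is often amplified with it, had normalized counts of 424, 410 and 443 in shNEG, against 442, 388 and 404 in shSPINK2. The groups overlapped, with a log2 fold change of -0.05 (SE 0.10, DESeq2 adjusted p = 0.72) and an interval from 0.85-fold to 1.10-fold. MYC itself, 51.6 kb away and the next tested gene, had a log2 fold change of 0.02 (SE 0.04, DESeq2 adjusted p = 0.76). Neither PVT1, MYC nor CCDC26, the lncRNA on its other side (-0.53, DESeq2 adjusted p = 0.12), passed the test.

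CYTOR (ENSG00000222041.10, chr2:87454781-87636740, plus strand), a cytoplasmic lncRNA often raised in tumours, had normalized counts of 410, 453 and 482 in shNEG, against 425, 477 and 465 in shSPINK2. Its log2 fold change was 0.02 (SE 0.10, DESeq2 adjusted p = 0.88), with an interval from 0.89-fold to 1.16-fold. CYTOR has a near-identical copy elsewhere on the chromosome, MIR4435-2HG, and the counting could split reads between them, so both values are uncertain. MIR4435-2HG was listed at a mean of 1461, with a log2 fold change of 0.13 (SE 0.06, DESeq2 adjusted p = 0.070), so neither copy passed. LINC01943, which shares 405 exonic bases with CYTOR on the opposite strand, did not pass (0.96, DESeq2 adjusted p = 0.056). Of the pseudogenes on either side, AC093616.1 was lower (-0.43) and AC083899.1 did not pass.

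Levels can be compared between members only per length. In shNEG and per kilobase of the union of annotated exons, the order of the mean normalized counts was NORAD (1671 ± 63.6 per kb), TUG1 (348 ± 8.75), OIP5-AS1 (279 ± 5.88), NEAT1 (121 ± 16.9), MALAT1 (91.8 ± 10.1), MIR22HG (33.1 ± 1.44), CYTOR (25.2 ± 2.01), HOTAIRM1 (21.8 ± 5.01), PVT1 (16.7 ± 0.65) and MIR155HG (13.7 ± 2.28), each SD with n = 3. Of the neighbours in that order, CYTOR and HOTAIRM1, HOTAIRM1 and PVT1, and PVT1 and MIR155HG had values that overlapped between libraries, and the others did not. Per kilobase of the longest annotated transcript, PVT1 moved from 16.7 to 174 and OIP5-AS1 from 279 to 702, since the annotation gives these genes many alternative exons, and the order changed with the length used, although NORAD stood at the head and MIR155HG at the foot under both. The kit selects polyadenylated mRNA, and MALAT1 and the long NEAT1 isoform are known to end without a poly(A) tail, so their levels here may not stand for all of their RNA.

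Other well-known lncRNAs were given by count, beside 22.7% of all tested genes called higher and 24.4% lower. Of 43 in a list of such genes, 25 were tested, 6 were higher, 5 lower and 14 did not pass, with a median log2 fold change of 0.09. Of those with a mean of at least 50, the higher ones were MIAT (normalized counts 73.1, 72.0 and 71.8 against 125, 117 and 150.02, log2 fold change 0.85), EPB41L4A-AS1 (0.66), LINC00467 (0.61), FTX (0.42) and LINC01278 (0.30). The lower ones were WT1-AS (302, 279 and 310.1 against 150.2, 159 and 159, log2 fold change -0.93), SLC25A25-AS1 (-0.55), JPX (-0.40), PCBP1-AS1 (-0.35) and DLEU1 (-0.34). The median over the 25 tested, 0.09, stands beside 0.12 for the 10 members.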

How the data were processed

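RNA of 6 FUJIOKA libraries (3 shNEG, 3 shSPINK2) was sequenced by the authors in paired-end mode (150 bases per read). The authors' pipeline was STAR against GRCh38, featureCounts per gene and DESeq2. The submitters' processing notes give STAR 2.7.11 and DESeq2 1.40.0, and the annotation release and the strand setting are not given in the sources used here. The deposited mean is a signal, the mean over 6 libraries of counts divided by size factors. The deposited log2 fold change and its SE, the Wald statistic (a score) and the p-value with its Benjamini-Hochberg adjustment are the authors' own DESeq2 output. These comparison columns were used because the table holds no value per library.

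Reads per library were then recovered as the whole numbers that give the deposited mean, fold change and SE, for genes with a mean of up to 12000, and divided by the recovered size factors. The sources name no molecular identifiers, and reads can therefore include copies of the same molecule. The 95% intervals come from the deposited SE, which includes the spread between libraries. A member passed at an adjusted p under 0.05. Recovered reads were also fitted with limma 3.58.1 (voom, the recovered size factors, R 4.3.3), with each library left out in turn, after tests on simulated data. Positions and transcripts came from GENCODE release 44, matched by Ensembl identifier without version for 99.1% of tested genes, and mature miRNAs from RefSeq.

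The members and lists were chosen with earlier results of these data known. Some neighbours and list genes are not reported here. Genes named are the members, SPINK2, their neighbours, the most changed genes of each list and, for the lists of miRNA hosts and other lncRNAs, up to 5 in each direction among called genes with a mean of at least 50. Other genes of the lists named as examples, the marker genes, and the 4 genes named with MALAT1 and NEAT1 for their spread were chosen after their values were seen. Alternatives were other thresholds and adjustments, minimum means of 10 and 50, centred and shrunken fold changes, limma, left-out libraries and another transcript length. Tools were Python 3.11.15 with scipy 1.17.1, pandas 2.3.3 and numpy 2.4.6.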

Additional observations from a re-analysis of the deposited data

How the results depend on the processing

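No paired analysis was possible because the table has no column per library and the recovered libraries carry no replicate number. MIR22HG, NORAD and OIP5-AS1 were called higher under each alternative run, except OIP5-AS1 with the Bonferroni adjustment. The number of members past the fold threshold and higher rose from 0 to 1 (MIR22HG) at 1.5-fold. In limma fits without 1 library the number of lower members lay between 0 and 1, the 1 being NEAT1 without shSPINK2 c, and the number of higher members between 3 and 4, MALAT1 being the 1 that came and went. In those fits the log2 fold changes of 4 uncalled members crossed 0: NEAT1 (-0.21 to 0.079), HOTAIRM1 (-0.054 to 0.35), MIR155HG (-0.17 to 0.042) and CYTOR (-0.037 to 0.078). SPINK2 was lower throughout (-3.06 to -2.80 without 1 library). Centring moved fold changes by under 0.01, since the genes above a mean of 50 had a median of -0.0067. HOTAIRM1 and MIR155HG are limited by depth, and MALAT1 and NEAT1 by the spread between libraries.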

Other observations

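Few other genes spread between libraries as MALAT1 and NEAT1 did. Of 8349 genes with recovered reads and a mean of at least 500, 6 had a coefficient of variation of at least 10% in shNEG and of at least 15% in shSPINK2, limits set after seeing the data to hold both lncRNAs. The other 4 were the lncRNAs AC004687.1 and SLC9A3-AS1 and the transcripts annotated as pseudogenes AHSA2 and PPIAP22. MALAT1 and NEAT1 were highest in shNEG b within shNEG and in shSPINK2 c within shSPINK2, and so were these other 4. That order was taken from MALAT1 and NEAT1 after seeing the data, so these 2 do not bear on it. The other 4 were picked by limits set to hold MALAT1 and NEAT1, and are no independent support. The order was found for 4.7% of the 8349 genes, which were not matched to the 4 for spread. The difference was not tested. AHSA2 had normalized counts of 1649, 2049 and 1761 in shNEG, against 1477, 1366 and 1912 in shSPINK2. AC004687.1 had 1183, 1402 and 1079 against 945, 940.1 and 1259. The other members did not share the order.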
